A study of Homo sapiens and Mus musculus with 18 samples.

Results

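Mouse epiblast-like cells (EpiLCs) and early gastruloids were compared gene by gene, using the 2 RNA-seq libraries of each. All 29720 genes of the mouse count table were considered, and the 14294 with enough counts in these 4 libraries were tested. Both groups came from the same E14Tg2a embryonic stem cell (ESC) line, and both were made directly from naïve ESCs kept in the inhibitors CHIR99021 and PD0325901 with the cytokine LIF. EpiLCs were grown flat on fibronectin in N2B27 medium with activin A, bFGF and knockout serum replacement, and were taken on day 2. Early gastruloids were aggregates of naïve ESCs in N2B27 that received 3 µM of the WNT agonist CHIR99021 at 48 h and were taken at 72 h. The gastruloids were therefore not derived from EpiLCs, and they were given neither activin A nor bFGF. Each group comprised 2 biological replicates collected in the same experimental batch, so that stage, culture format and batch cannot be told apart, and the p-values measure only the spread between duplicates, pooled over the 4 mouse stages of the fit. Naïve ESCs and late gastruloids (2 libraries each) are given only as reference levels.

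EpiLCs stand for the epiblast shortly after implantation, which has left the naïve state and can respond to signals that induce the germ layers. Gastruloids are aggregates that break symmetry and form a posterior pole when WNT signalling is activated. In the embryo, WNT, NODAL and FGF signals at the posterior epiblast induce the primitive streak, through which cells leave the epithelium to form mesoderm and endoderm. Several naïve pluripotency genes are also maintained by inhibition of GSK3, the kinase that CHIR99021 blocks.

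Total counts were 6667575 and 15050982 in the EpiLCs and 20052505 and 11345059 in the early gastruloids, and 3 counts, below which a 0 is uninformative, equalled 0.146 to 0.437 CPM (counts scaled to the library total). Replicates differed by more than sampling noise, with a chi-square per degree of freedom of 2.73 in EpiLCs and 2.28 in early gastruloids. The biological coefficient of variation over the 8 mouse libraries was 4.31%. On log2 CPM, the distance between replicates was 41.8 in EpiLCs and 32.1 in early gastruloids, and the distances between the groups ran from 115.5 to 121.9. The EpiLC libraries expressed the epiblast genes Fgf5 and Pou3f1 with little Klf4, and the early gastruloid libraries expressed T, as the labels of both groups would have it. Levels below are CPM after TMM scaling, with the value of replicate 1 before that of replicate 2. Fold changes are log2 differences of early gastruloids minus EpiLCs with their standard error (SE).

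Differentially expressed transcripts (DETs) were called at a Benjamini-Hochberg adjusted p under 0.05 in edgeR's quasi-likelihood test, over all tested genes, together with an absolute log2 fold change above 1. This gave 3071 DETs, or 21.5% of the genes tested. Of these, 1693 (11.8% of the genes tested) were higher in early gastruloids and 1378 (9.64%) were higher in EpiLCs. The median log2 fold change over all tested genes was 0.011. A difference of more than 4 log2 units was reached by 109 of the DETs higher in early gastruloids and by 31 of those higher in EpiLCs. The DETs higher in early gastruloids held 2.86% of the EpiLC CPM and 8.35% of the early gastruloid CPM, whereas those higher in EpiLCs held 5.29% and 1.92%, respectively. The split differed between short and long genes. In the quintile of shortest genes 347 were higher in early gastruloids and 389 in EpiLCs, with a median log2 fold change of -0.119, while in the quintile of longest genes the counts were 421 and 165 and the median was 0.196. With gene length as an offset, 3008 DETs were called, of which 1653 were higher in early gastruloids and 1355 in EpiLCs, so that the split over all genes was nearly the same.

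**Figure D1:**
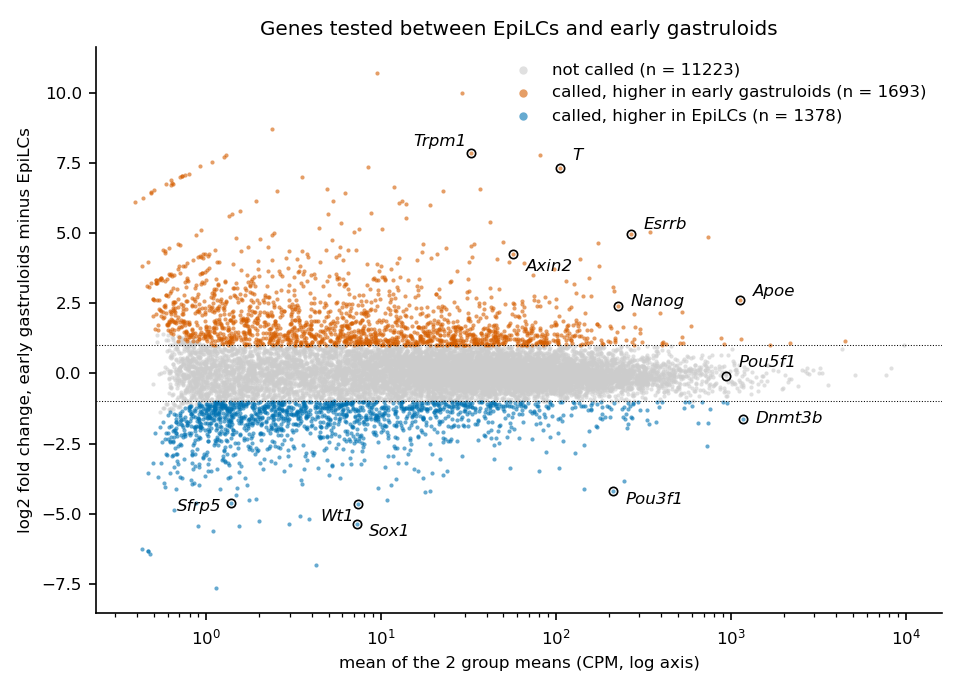
Log2 fold change of early gastruloids minus EpiLCs (vertical axis) against the mean of both group means in CPM (horizontal log axis) for the 14294 tested genes, with 1693 DETs higher in early gastruloids in orange and 1378 higher in EpiLCs in blue. Dotted lines mark a log2 fold change of 1 and -1, T and Trpm1 lie near the top at their level while Pou5f1 lies near 0, and the slanted streaks at the left hold genes at or near 0 counts in one group, whose fitted fold changes are not reliable sizes.

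The largest rises among DETs of at least 10 CPM, with more than 3 counts in a library of the lower group, included T. In naïve ESCs the other genes of this set were also above their EpiLC levels, a difference that was not tested. Trpm1, a cation channel known from retina and melanocytes, stood at 0.291 and 0.259 CPM in EpiLCs and 65.2 and 64.97 CPM in early gastruloids (7.86 ± 0.20, adjusted p = 1.64e-32). Ntn1, which encodes the guidance cue netrin-1, stood at 0.727 and 0.712 against 165 and 157 CPM (7.79 ± 0.14, adjusted p = 1.91e-38). Both genes were well expressed in naïve ESCs, with 140.2 and 157 CPM for Trpm1 and 214 and 199 CPM for Ntn1. The water and glycerol channel gene Aqp3 (0.436 and 0.518 against 45.1 and 44.7 CPM), Lrrc31 (0.145 and 0.259 against 24.3 and 22.7 CPM), the myosin heavy chain gene Myh13 (0.145 and 0.453 against 29.2 and 22.4 CPM) and the peptidoglycan recognition protein gene Pglyrp1 (0.291 and 0.712 against 37.01 and 38.5 CPM) completed the set beside T, Tbx3, Notum and Prdm14, which are described with their lists. Naïve ESCs held 122 and 127 CPM of Aqp3, 20.4 and 20.6 CPM of Lrrc31 and 17.1 and 12.5 CPM of Myh13. They held 31.1 and 36.1 CPM of Pglyrp1, 243 and 251 CPM of Tbx3 and 127 and 128 CPM of Prdm14. T, by contrast, stood at 2.63 and 3.31 CPM in naïve ESCs. In each gene of this set both early gastruloid libraries lay above both EpiLC libraries, which is set by the rule for the named genes. Over all tested genes, 81.3% had no overlap between the groups. The low EpiLC counts limit the size of such differences: without EpiLC replicate 2, the value was 7.39 for Myh13 and 6.96 for Pglyrp1.

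The largest falls included 4 genes of transcription factors, Sox1, Wt1, Insm1 and Pou3f1, the last of which is described with its list. Sox1, an early marker of neuroectoderm, stood at 12.4 and 15.9 CPM in EpiLCs and 0.389 and 0.260 CPM in early gastruloids (-5.36 ± 0.30, adjusted p = 3.38e-20). Wt1, a zinc-finger regulator of kidney and gonad formation, stood at 13.7 and 14.7 against 0.535 and 0.606 CPM (-4.65 ± 0.27), and Insm1, a zinc-finger regulator of neuroendocrine cells, at 19.8 and 21.4 against 0.875 and 0.953 CPM (-4.503 ± 0.24). The sugar transporter gene Slc45a1, the metallothionein gene Mt3 and the AMPA receptor auxiliary gene Cnih2 were lower in early gastruloids by 4.21, 4.18 and 3.98 log2 units. Genes of the cell surface were among them. Itga3, an integrin subunit that binds laminin, stood at 264 and 281 against 16.2 and 14.7 CPM (-4.12 ± 0.08), and Lrp2, the endocytic receptor megalin, at 446 and 463 against 31.4 and 33.3 CPM (-3.82 ± 0.07). Naïve ESCs held 45.6 and 36.5 CPM of Itga3 and 9.57 and 10.1 CPM of Lrp2, so that for both genes EpiLCs were the highest of the 4 stages. Among DETs, the largest difference in CPM toward EpiLCs was that of Dnmt3b, followed by Dusp9, an ERK phosphatase (1262 and 1229 against 206 and 209 CPM), Pim2, Dnmt3a and the ferritin heavy chain gene Fth1 (1312 and 1247 against 612 and 608 CPM). Toward early gastruloids, the largest among DETs were mt-Cytb, Apoe, mt-Nd5, Trh and mt-Nd2. Trh, the precursor of thyrotropin-releasing hormone, stood at 51.4 and 46.8 against 1435 and 1411 CPM (4.87 ± 0.06, adjusted p = 1.63e-44), above the 278 and 277 CPM of naïve ESCs and the 249 and 252 CPM of late gastruloids.

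Genes of naïve pluripotency were higher in early gastruloids. Of 25 listed and tested, 20 were higher in early gastruloids, 2 were higher in EpiLCs and 3 were not called, against a background of 11.8% and 9.64% of all genes, and the median log2 fold change was 3.81 against 0.011 over all genes. Esrrb (ENSMUSG00000021255, chr12:86407887-86568409 in GRCm39), an orphan nuclear receptor that sustains self-renewal, stood at 17.9 and 15.8 CPM in EpiLCs and 534 and 509.6 CPM in early gastruloids (4.98 ± 0.07, adjusted p = 8.92e-43). It stood at 1102 and 1114 CPM in naïve ESCs, so that the early gastruloid libraries lay between those of EpiLCs and naïve ESCs. The Krüppel-like factor Klf2 (23.1 and 23.4 against 328 and 326 CPM), Tfcp2l1 (13.97 and 16.3 against 257 and 260.0 CPM) and Tdh, the threonine dehydrogenase of mouse ESCs (20.95 and 20.5 against 664 and 677 CPM), had the same order of stages. Klf4 stood at 1.31 and 2.33 against 44.1 and 45.9 CPM (4.47 ± 0.14, and 5.08 without EpiLC replicate 2), and Tbx3, a T-box factor, at 0.582 and 0.842 against 71.6 and 74.7 CPM (6.56 ± 0.15). Prdm14, which represses FGF signalling and DNA methyltransferases, stood at 0.145 and 0.518 against 27.8 and 26.9 CPM (6.05 ± 0.23, and 7.44 without EpiLC replicate 2).

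Jam2, a junctional adhesion molecule of naïve cells, had 0 counts in both EpiLC libraries and 19.4 and 18.5 CPM in early gastruloids, which is at least 142-fold higher against a floor of 3 counts over both EpiLC libraries. Spic, likewise at 0 counts in EpiLCs, was at least 15.3-fold higher (1.799 and 2.51 CPM). The median of the list was unchanged at 3.81 with these 2 genes at their bounds. Both passed the count filter only through the early gastruloid libraries, so that their direction was fixed by the filter. Nanog, the homeobox factor of naïve pluripotency, stood at 65.3 and 75.6 against 376 and 387 CPM (2.42 ± 0.06), and Sox2 at 155 and 145 against 443 and 461 CPM (1.597 ± 0.06). The smallest call in this direction was Pecam1, a surface marker of naïve cells (47.9 and 54.00 against 126 and 123 CPM, 1.27 ± 0.07). The exceptions to the direction of the list were Gbx2, a homeobox gene (19.8 and 20.6 against 2.92 and 4.07 CPM, -2.59 ± 0.17), and Fgf4 (288 and 291 against 136 and 144 CPM, -1.05 ± 0.06, which was -0.99 and not called with gene length as an offset). Tfap2c and Dppa3, both also known from germ cells, lay above their naïve levels. Tfap2c stood at 103 and 100.3 CPM in early gastruloids against 81.3 and 75.5 CPM in naïve ESCs, and Dppa3 at 38.2 and 38.5 against 27.6 and 24.7 CPM, a difference that was not tested. The naïve gene Dppa5a, at 681 and 664 against 1057 and 1086 CPM (0.67 ± 0.05), was below the fold threshold, and Dppa2 and Dppa4 were at 0.025 and 0.12 log2 units.

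Of 12 genes that mark pluripotent cells in general, none was higher in early gastruloids and 1 was higher in EpiLCs, with a median of -0.13. The called share was 8.33%, against 21.5% of all genes. At an unadjusted p under 0.05 in edgeR and any fold change, 5 were higher in early gastruloids, and DESeq2 called none of them. Pou5f1, the POU factor OCT4, stood at 936 and 994 CPM in EpiLCs and 923 and 896 CPM in early gastruloids, a log2 difference of -0.086 ± 0.05 (adjusted p = 0.106). The Pou5f1 libraries of both groups did not overlap, as in 81.3% of all tested genes, but the fitted difference did not pass the test. Lin28a (586 and 591 against 385 and 383 CPM), Utf1 (822 and 863 against 473 and 482 CPM) and the NODAL co-receptor gene Cripto (765 and 751 against 475 and 508 CPM) were lower in early gastruloids by less than 1 log2 unit. The gene called was Foxd3, a forkhead factor (52.7 and 56.7 against 15.3 and 16.02 CPM, -1.82 ± 0.10, adjusted p = 1.21e-20), for which naïve ESCs were at the EpiLC level with 50.7 and 54.6 CPM.

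Genes of formative and primed epiblast were mostly lower in early gastruloids. Of 25 tested, 13 were higher in EpiLCs, 2 were higher in early gastruloids and 10 were not called. The median was -1.06, and 60% were called, against 21.5% of all genes. Pou3f1 (ENSMUSG00000090125, chr4:124550600-124554448), the POU factor OCT6, stood at 394 and 407 CPM in EpiLCs and 22.95 and 20.5 CPM in early gastruloids (-4.19 ± 0.07, adjusted p = 1.91e-38). The de novo methyltransferase genes Dnmt3a (979.6 and 1022 against 287 and 295 CPM, -1.78 ± 0.05) and Dnmt3b (1754 and 1793 against 570.3 and 573 CPM, -1.63 ± 0.05) and the kinase gene Pim2 (1148 and 1132 against 337 and 338 CPM, -1.76 ± 0.05) were lower in early gastruloids but above the naïve level of 48.3 and 42.3 CPM for Dnmt3a, 141 and 139 CPM for Dnmt3b and 28.01 and 29.5 CPM for Pim2. Sox3 (-2.21 ± 0.10), Fgf15 (-2.39 ± 0.17), Syt11 (-3.42 ± 0.16), Sall2 (-1.91 ± 0.08), Sox4 (-1.89 ± 0.08) and Etv4 (-1.82 ± 0.07) were lower by between 1.82 and 3.42 log2 units. The call of Lin28b (-1.06 ± 0.08) was lost without EpiLC replicate 2 (-0.98).

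Not all formative genes were called. Otx2, the homeobox factor that drives exit from the naïve state, stood at 126 and 116 CPM in EpiLCs and 129.7 and 141 CPM in early gastruloids (0.17 ± 0.07, adjusted p = 0.0242), both above the 10.5 and 12.8 CPM of naïve ESCs. Fgf5, a classical marker of postimplantation epiblast, stood at 54.3 and 49.5 against 30.2 and 31.6 CPM (-0.74 ± 0.09) and at 0.277 and 0.179 CPM in naïve ESCs. The tight-junction gene Cldn6 (126 and 121 against 129 and 124 CPM) and the zinc-finger gene Zic2 (110.3 and 119 against 94.8 and 94.5 CPM) were also below the fold threshold. The 2 genes higher in early gastruloids were Wnt8a, a WNT ligand (11.2 and 10.7 against 59.1 and 64.5 CPM, 2.502 ± 0.11), and Cdh2, or N-cadherin (3.06 and 2.98 against 14.1 and 12.8 CPM, 2.17 ± 0.16).

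**Figure D2:**
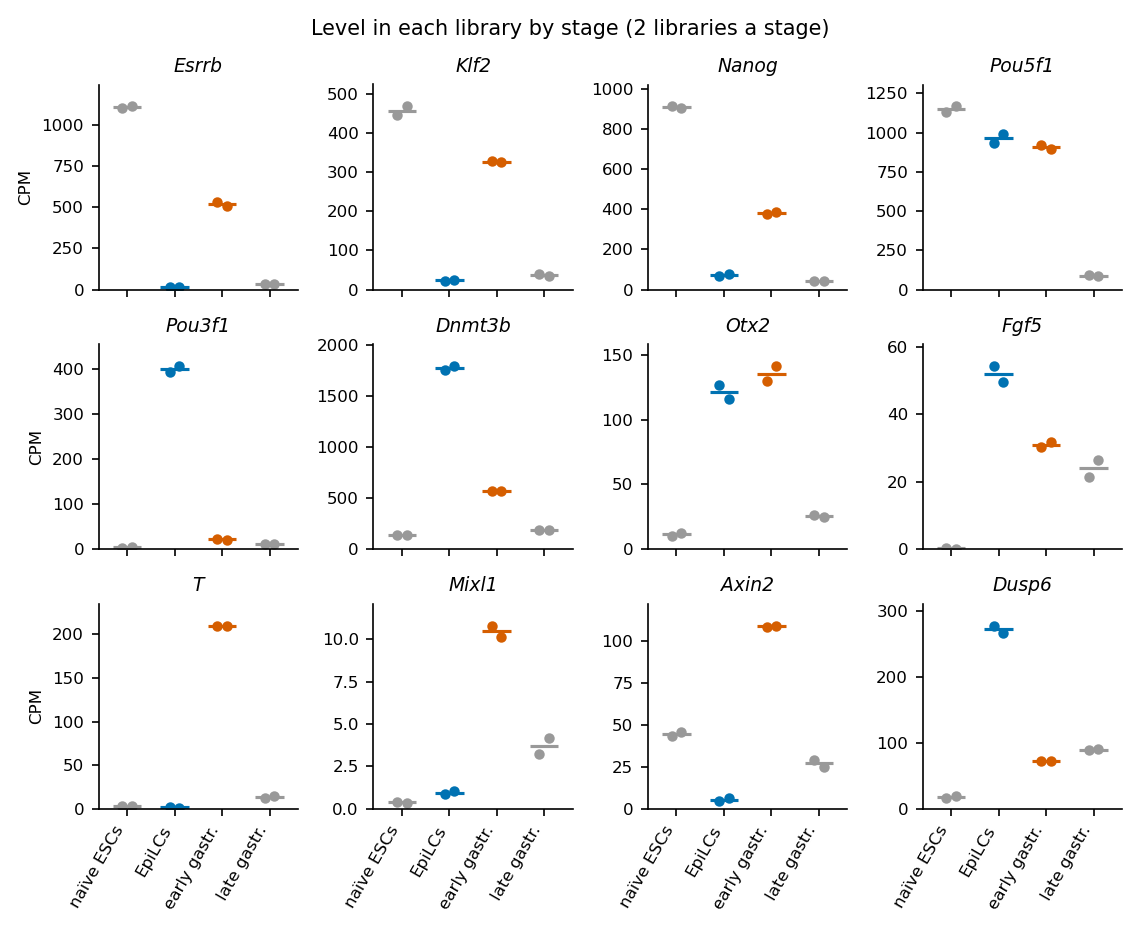
CPM (vertical axes, each starting at 0) of 12 genes in each of the 8 mouse libraries by stage, with points for the 2 libraries of a stage and a line for their mean, EpiLCs in blue, early gastruloids in orange and the reference stages in grey. Esrrb, Klf2 and Nanog in early gastruloids lie between the EpiLC and naïve ESC values, Pou3f1, Dnmt3b and Dusp6 are highest in EpiLCs, and T, Mixl1 and Axin2 are highest in early gastruloids.

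Genes of the primitive streak and of the mesoderm that leaves it were mostly higher in early gastruloids. Of 31 listed, 26 had enough counts to be tested. Of these, 21 were higher in early gastruloids, 1 was higher in EpiLCs and 4 were not called. The median was 2.87, and 84.6% were called, against 21.5% of all genes. Some members passed the count filter only through the early gastruloid libraries, so that their direction was fixed by the filter. Examples were Aplnr, Sp5, Rspo3, Evx1 and Kdr, with 0, 1, 1, 2 and 2 counts over both EpiLC libraries. For such members the direction of the call is not a result on its own. The list summed to 299.7 and 292.9 CPM in EpiLCs and 857.6 and 877.8 CPM in early gastruloids. Naïve ESCs held 878.3 and 902.1 CPM, so that the sum in early gastruloids did not exceed theirs. The sums were not tested. T (ENSMUSG00000062327, chr17:8653062-8661328), or brachyury, the T-box factor of the streak, stood at 2.33 and 0.842 CPM in EpiLCs and 209.9 and 209 CPM in early gastruloids (7.32 ± 0.14, adjusted p = 9.99e-38). The EpiLC replicates of T were uneven, and the log2 fold change was 7.94 without replicate 1 and 6.49 without replicate 2. Naïve ESCs (2.63 and 3.31 CPM) and late gastruloids (12.4 and 14.1 CPM) were also low in T. The homeobox factors Mixl1 (0.873 and 1.04 against 10.8 and 10.1 CPM, 3.402 ± 0.27) and Evx1 (0 and 2 counts against 15.9 and 17.7 CPM, a ratio of 184 with a 95% counting interval of 50.8 to 1525) and the T-box factor Eomes (7.27 and 6.86 against 31.9 and 32.9 CPM, 2.205 ± 0.13) were each called higher in early gastruloids. EpiLC replicate 1 held 0 counts of Evx1. Fgf8 (5.82 and 4.66 against 19.99 and 20.96 CPM, 2.01 ± 0.15), Wnt3 (11.5 and 10.7 against 29.1 and 31.4 CPM, 1.45 ± 0.12) and the activin antagonist gene Fst (14.8 and 14.3 against 72.5 and 72.7 CPM, 2.32 ± 0.10) were the secreted factors of the list. Cdx2, a posterior homeobox gene, stood at 0.727 and 0.194 against 4.52 and 4.94 CPM (3.66 ± 0.39), and was at 4.52 without EpiLC replicate 1 and 2.67 without EpiLC replicate 2. Snai1, the repressor of E-cadherin, stood at 2.33 and 1.62 against 12.5 and 11.4 CPM (2.704 ± 0.22).

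Later and more anterior genes were low. The endoderm and node factor Foxa2 reached 1.95 and 2.25 CPM in early gastruloids and 26.4 and 26.4 CPM in late gastruloids, the mesoderm receptor genes Kdr and Pdgfra 0.973 and 0.866 CPM (Kdr) and 1.22 and 1.13 CPM (Pdgfra) against 139 and 133 CPM and 258 and 254 CPM, and Aplnr, at 0 counts in EpiLCs, 2.29 and 2.86 CPM against 49.2 and 52.2 CPM. The paraxial mesoderm genes Tbx6 and Msgn1, the mesoderm gene Mesp1, the anterior gene Cer1 and the ligand Wnt3a did not have enough counts to be tested. Wnt3a had 0 and 0 counts in the EpiLC libraries and 26 and 8 in the early gastruloid libraries, which is at least 7.88-fold higher against the floor over both libraries. Kdr was called at 3.23, and was at 2.59 without EpiLC replicate 2. Tbx6 had 0 and 9 against 8 and 4 counts. The streak gene Cdx4 was called higher in EpiLCs (1.45 and 2.14 against 0.924 and 0.953 CPM, -1.02 ± 0.40), a call that was lost under 8 of the alternatives, among them the omission of EpiLC replicate 2 (-0.63) and of early gastruloid replicate 1 (-0.99) or 2 (-1.03). Gsc, the organizer homeobox gene, stood at 0.145 and 0.259 against 2.19 and 2.51 CPM (3.31 ± 0.52) and at 5.96 and 6.88 CPM in naïve ESCs. In these bulk libraries, fewer cells of a type and less RNA per cell cannot be told apart.

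Of 30 listed targets and feedback regulators of WNT signalling, 25 were tested, of which 9 were higher in early gastruloids and 2 were higher in EpiLCs. The median was 0.54, and 44% were called, against 21.5% of all genes. Sp5, Rspo3 and Dkk1 passed the count filter only through the early gastruloid libraries, and Sfrp5 only through those of EpiLCs. For these genes the direction was fixed by the filter. Axin2 (ENSMUSG00000000142, chr11:108811169-108841609), the feedback scaffold of the β-catenin destruction complex, stood at 4.66 and 6.22 CPM in EpiLCs and 108 and 109 CPM in early gastruloids (4.25 ± 0.11, adjusted p = 1.64e-32). Sp5, a zinc-finger factor and direct target, had 0 and 1 counts in EpiLCs and 55.6 and 59.7 CPM in early gastruloids, a ratio of 1274 with a 95% counting interval of 228 to 50335. Notum, which removes the lipid of WNT ligands, stood at 0.436 and 0.324 against 23.8 and 25.6 CPM (6.05 ± 0.24). Naïve ESCs, which also received CHIR99021, held 43.5 and 45.7 CPM of Axin2, 44.9 and 44.7 CPM of Sp5 and 93.5 and 94.8 CPM of Notum, so that the early gastruloid libraries lay below those of naïve ESCs in Notum and above them in Axin2, differences that were not tested. Cdx1, a posterior homeobox gene (0.436 and 0.259 against 16.6 and 17.7 CPM, 5.71 ± 0.28), the ligase gene Rnf43 (1.45 and 0.259 against 3.696 and 3.64 CPM, 2.500 ± 0.42, and 3.77 and 1.33 without EpiLC replicate 1 and 2) and the inhibitor gene Dkk1 (0 and 2 counts against 1.51 and 1.299 CPM, a ratio of 15.99 with an interval of 4.18 to 136) were also called. EpiLC replicate 1 held 0 counts of Sp5 and Dkk1, so that their sizes rest on EpiLC replicate 2.

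Other members of the pathway were mostly not called. The nuclear effectors Lef1 (22.6 and 22.1 against 36.6 and 36.03 CPM), Tcf7 (101 and 113 against 173 and 169.7 CPM), Tcf7l1 (113 and 125 against 99.3 and 101 CPM) and Tcf7l2 (6.11 and 5.698 against 5.11 and 4.24 CPM) were between -0.29 and 0.71 log2 units and were not called. The feedback genes Znrf3 (0.74) and Nkd1 (0.15) and the cell-cycle target Ccnd1 (0.34) were not called either. Sfrp5, a secreted WNT antagonist, was higher in EpiLCs (-4.62, with -3.79 without early gastruloid replicate 1 and -5.42 without replicate 2, 2.91 and 2.396 against 0.0486 and 0.173 CPM, a ratio of 27.3 with an interval of 8.89 to 136). The call of Nkd2 toward EpiLCs (-1.16 ± 0.21) was lost without early gastruloid replicate 1 (-0.95). Of 18 WNT ligand genes in the mouse count table, 10 were tested. Of these, 7 were higher in early gastruloids and none was higher in EpiLCs. The median was 1.62, and 70% were called, against 21.5% of all genes. Among the ligands tested, neither an unadjusted p under 0.05 in edgeR nor DESeq2 added one higher in EpiLCs. Beside Wnt3 and Wnt8a they were Wnt6 (0.873 and 1.04 against 10.02 and 10.5 CPM, 3.36 ± 0.27), Wnt5b (4.36 and 3.37 against 19.7 and 19.6 CPM, 2.41 ± 0.17), Wnt11 (1.79 ± 0.38), Wnt5a and Wnt4. The calls of the last 2 were lost without EpiLC replicate 2, with 0.94 for Wnt5a (4.49 without EpiLC replicate 1) and 1.34 for Wnt4, which then missed the adjusted p and was also not called by DESeq2 (1.29).

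TCF/LEF factors, the DNA-binding partners of β-catenin, recognize the letters CTTTGAT. These letters or their reverse complement ATCAAAG were searched in windows of 250 bases before to 50 bases after the start of the canonical transcript of each tested protein-coding gene in GRCm39, which need not be the outermost start of the gene (in Axin2 and T it is not). They were found in 3 of the 9 WNT targets called higher in early gastruloids (Sp5, Notum and Cdx1), in 2 of the other 16 tested (Ccnd1 and Nkd1) and in 333 of all 13094 windows (2.54%). They were not found in the windows of Axin2 and T. The windows of Sp5 (chr2:70305017-70305316, forward strand) and Notum (chr11:120551970-120552269, reverse strand) are shown as examples, and that of Cdx1 is not shown. Sp5 and Notum were below 1 CPM in EpiLCs and above 20 CPM in early gastruloids. In each shown window the match is in capitals. It begins 104 bases before that start in Sp5 and 53 bases before it in Notum.
Sp5: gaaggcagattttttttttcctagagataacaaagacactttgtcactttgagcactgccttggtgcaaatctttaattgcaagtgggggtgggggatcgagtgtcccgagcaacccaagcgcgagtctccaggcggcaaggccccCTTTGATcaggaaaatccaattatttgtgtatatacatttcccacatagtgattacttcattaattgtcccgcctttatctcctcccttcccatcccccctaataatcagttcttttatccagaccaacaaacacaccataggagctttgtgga
Notum: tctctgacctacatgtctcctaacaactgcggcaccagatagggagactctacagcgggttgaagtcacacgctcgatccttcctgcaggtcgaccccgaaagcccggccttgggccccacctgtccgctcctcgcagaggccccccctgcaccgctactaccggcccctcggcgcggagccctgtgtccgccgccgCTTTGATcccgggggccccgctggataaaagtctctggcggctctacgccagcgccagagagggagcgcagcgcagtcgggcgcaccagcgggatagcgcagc

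FGF ligands differed from one another. Of 13 FGF ligand and receptor genes tested, 4 were higher in early gastruloids and 5 were higher in EpiLCs. The median was -0.402, and 69.2% were called, against 21.5% of all genes. Those higher in early gastruloids were Fgf8, Fgfr4, Fgf1 and Fgfr2. Fgf15 (26.8 and 22.8 against 4.96 and 4.16 CPM), Fgf13 (35.9 and 33.1 against 10.6 and 12.5 CPM), Fgf3 (3.93 and 3.76 against 1.605 and 1.47 CPM), Fgf21 (2.91 and 2.65 against 0 and 0.346 CPM) and Fgf4 were higher in EpiLCs. Fgf21 was at -4.33 in the fit of all libraries, -2.94 without early gastruloid replicate 1 and -7.91 without early gastruloid replicate 2, which held all of its counts in that group. The main receptor gene Fgfr1 stood at 123 and 134 against 123 and 119 CPM (-0.092 ± 0.06, adjusted p = 0.204), and Fgfr4 at 2.62 and 2.72 against 7.25 and 7.88 CPM (1.48 ± 0.23). The calls of Fgf1 (3.28 ± 0.86) and Fgfr2 (1.002 ± 0.13) toward early gastruloids were lost without EpiLC replicate 2 for Fgf1 (1.703, and 6.51 without EpiLC replicate 1, where the other EpiLC library had 0 counts) and without EpiLC replicate 1 (0.96) or early gastruloid replicate 2 (0.901) for Fgfr2. Fgfr2 was also not called by DESeq2 (0.999), with DESeq2 size factors (0.98), with upper quartile scaling (0.95) or with gene length as an offset (0.82, and 0.87 with a replicate block).

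Feedback regulators and targets of the FGF-ERK cascade were partly lower in early gastruloids. Of 19 tested, 5 were higher in EpiLCs, 1 was higher in early gastruloids and 13 were not called, with a median of -0.021. The called share was 31.6%, against 21.5% of all genes. Dusp6, the ERK phosphatase, stood at 278 and 267 CPM in EpiLCs and 72.02 and 71.98 CPM in early gastruloids (-1.92 ± 0.06, adjusted p = 8.69e-29). The feedback inhibitor gene Spry4 (49.03 and 43.1 against 12.6 and 12.7 CPM, -1.84 ± 0.11), the ETS factor gene Etv4 (119 and 121 against 34.1 and 34.04 CPM, -1.82 ± 0.07) and Ier3 (10.6 and 10.4 against 3.501 and 3.72 CPM, -1.55 ± 0.19) had the same direction. Myc, the growth regulator, stood at 79.3 and 78.8 against 8.900 and 10.5 CPM (-3.05 ± 0.10, adjusted p = 5.26e-29), with 12.8 and 12.7 CPM in naïve ESCs and 55.9 and 52.4 CPM in late gastruloids. Close relatives went the other way by less than 1 log2 unit. They were Etv5 (263 and 275 against 368 and 364 CPM, 0.44 ± 0.05), Dusp4 (61.2 and 58.3 against 98.7 and 104 CPM, 0.76 ± 0.07) and Spry2 (57.2 and 65.3 against 96.3 and 99.5 CPM, 0.66 ± 0.07). The call of Egr1 toward early gastruloids (1.104 ± 0.12) was lost without EpiLC replicate 1 (0.89) or early gastruloid replicate 1 (0.96).

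In the NODAL and activin pathway the called share was near that of all genes. Of 19 tested, 2 were higher in early gastruloids, 1 was higher in EpiLCs and 16 were not called, with a median of 0.02 and a called share of 15.8%, against 21.5% of all genes. The ligand gene Nodal stood at 121 and 118 against 238 and 261 CPM (1.06 ± 0.06, adjusted p = 2.32e-19), which fell just under the threshold of 1, to 0.9995, without early gastruloid replicate 2. The antagonist genes Lefty1 (299 and 291 against 285 and 280.4 CPM, -0.06 ± 0.05) and Lefty2 (235 and 232 against 316 and 328 CPM, 0.46 ± 0.05), which are similar in sequence, were not called. The effector genes Smad2, Smad3 and Smad4 were between -0.05 and 0.17 log2 units.

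The BMP pathway held calls in both directions. Of 20 tested, 7 were higher in early gastruloids and 5 were higher in EpiLCs. The median was 0.11, and 60% were called, against 21.5% of all genes. The ligand genes Bmp7 (3.49 and 4.01 against 61.1 and 58.6 CPM, 3.96 ± 0.13) and Bmp4 (4.22 and 2.396 against 14.7 and 13.3 CPM, 2.24 ± 0.19) and the target genes Id3 (2.76 and 1.42 against 17.9 and 19.7 CPM, 3.33 ± 0.19) and Id4 (0.436 and 0.583 against 18.9 and 20.4 CPM, 5.16 ± 0.25) were higher in early gastruloids. Bmp8b was higher in EpiLCs (3.201 and 5.57 against 0.389 and 0.693 CPM, -3.198 ± 0.39), as were the inhibitor gene Smad6 (-1.19 ± 0.14) and the receptor gene Bmpr1b (-1.71 ± 0.43). Nog was called toward EpiLCs (-1.04 ± 0.46), but not by DESeq2, with a replicate block, with gene length as an offset or on omission of any 1 replicate. Bmp8a was called toward early gastruloids (1.23 ± 0.38), but not by DESeq2 (1.20) or without EpiLC replicate 2 (0.81) or early gastruloid replicate 2 (0.97). The target gene Id2 was called toward EpiLCs (5.38 and 4.08 against 1.26 and 2.25 CPM, -1.46 ± 0.25), but not without early gastruloid replicate 1 (-0.99). The ID genes, which encode inhibitors of basic helix-loop-helix factors, thus included calls in opposite directions.

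Of 23 anterior neural genes, 10 were tested and 3 were called, all higher in EpiLCs, with a median of -0.04. The called share was 30%, against 21.5% of all genes. At an unadjusted p under 0.05 in edgeR and any fold change, 2 were higher in early gastruloids, and DESeq2 called none in that direction. Beside Sox1 and Sox3 (63.1 and 64.5 against 13.4 and 14.4 CPM), the third was the homeobox gene Irx3 (18.3 and 26.2 against 1.36 and 2.34 CPM, -3.76 ± 0.19). Pax6 stood at 2.33 and 2.396 against 3.02 and 2.43 CPM and Nes at 47.3 and 47.01 against 65.4 and 67.3 CPM, and neither was called.

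Genes of retinoic acid handling and response were mostly higher in EpiLCs. Of 14 tested, 8 were higher in EpiLCs and 2 were higher in early gastruloids. The median was -1.28, and 71.4% were called, against 21.5% of all genes. The receptor gene Rarg (290.1 and 293 against 120.4 and 125 CPM, -1.25 ± 0.06), the binding protein gene Crabp2 (32.3 and 29.01 against 8.900 and 7.19 CPM, -1.87 ± 0.12) and the retinol uptake receptor gene Stra6 (5.82 and 7.45 against 0.584 and 0.173 CPM, -3.95 ± 0.34, and -5.21 without early gastruloid replicate 1) were higher in EpiLCs. Aldh1a2, which makes retinoic acid (0.727 and 0.777 against 3.45 and 4.76 CPM, 2.35 ± 0.31), was higher in early gastruloids. Of 39 HOX genes, 6 had enough counts to be tested, with 50% called against 21.5% of all genes. Hoxb1 (0.145 and 0.388 against 2.72 and 2.51 CPM, 3.03 ± 0.46) and Hoxc13 (1.16 and 0.906 against 3.16 and 3.72 CPM, 1.76 ± 0.34) were higher in early gastruloids, and Hoxd13 (1.45 and 1.55 against 0.535 and 0.953 CPM, -1.12 ± 0.45) was called toward EpiLCs but not without EpiLC replicate 1, EpiLC replicate 2 or early gastruloid replicate 1 (-1.15, -1.06 and -0.67). The Hoxd13 call was also lost by DESeq2 (-1.08), with no filter (-1.102), with a replicate block (-1.08) and with the length offset and the block (-0.998). Without EpiLC replicate 2, Hoxb1 was at 4.07.

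In the Notch pathway, ligands divided. Of 13 tested, 3 were higher in early gastruloids and 4 were higher in EpiLCs. The median was -0.16, and 53.8% were called, against 21.5% of all genes. Jag1 (11.6 and 12.04 against 34.1 and 34.1 CPM, 1.52 ± 0.11) and the target genes Hes1 (20.4 and 19.9 against 53.5 and 54.2 CPM, 1.42 ± 0.09) and Hey1 (1.32 ± 0.26) were higher in early gastruloids. Dll1 (19.5 and 22.7 against 8.85 and 8.75 CPM, -1.28 ± 0.14), Dll4 (2.33 and 1.94 against 0.243 and 0.0866 CPM, -3.402 ± 0.55, and -4.39 without early gastruloid replicate 1), the receptor gene Notch3 (356 and 384 against 176 and 179 CPM, -1.06 ± 0.05) and Lfng, which glycosylates Notch (-1.69 ± 0.28, and -2.44 without early gastruloid replicate 1), were higher in EpiLCs.

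The DNA methylation list of 16 genes had a median of 0.36 and a called share of 31.2%, against 21.5% of all genes. Beyond Dnmt3a and Dnmt3b, it held 3 genes higher in early gastruloids. They were the dioxygenase gene Tet2 (4.51 and 7.19 against 28.2 and 26.3 CPM, 2.12 ± 0.14), Zfp57, which protects imprints (45.5 and 51.3 against 134 and 123 CPM, 1.39 ± 0.08), and Uhrf2 (52.1 and 46.3 against 105 and 103 CPM, 1.097 ± 0.07), whose call was lost without EpiLC replicate 2 (0.996) or with gene length as an offset (0.97). The maintenance methyltransferase gene Dnmt1 (298 and 356 against 444 and 413 CPM), its partner Uhrf1 (298 and 325 against 397 and 393 CPM) and the cofactor gene Dnmt3l (357 and 342 against 309 and 315 CPM) were within 1 log2 unit. Of 21 imprinted genes tested, 3 were higher in early gastruloids and 7 were higher in EpiLCs. The median was -0.43, and 47.6% were called, against 21.5% of all genes. Dlk1 (18.3 and 17.9 against 1.26 and 0.693 CPM, -4.08 ± 0.18, and -4.68 without early gastruloid replicate 1), Grb10 (232 and 261 against 43.3 and 41.9 CPM, -2.54 ± 0.07) and H19 (15.9 and 16.3 against 5.79 and 5.89 CPM, -1.47 ± 0.11) were higher in EpiLCs, and Plagl1 (1.45 and 1.42 against 17.99 and 18.2 CPM, 3.65 ± 0.17) and Peg10 (134 and 154 against 635 and 640.4 CPM, 2.14 ± 0.06) were higher in early gastruloids. The antisense RNA Kcnq1ot1 (1.68 ± 0.16) was not called with gene length as an offset (0.99), and its reads cannot be told from those of Kcnq1 on the other strand.

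Epithelial genes held calls in both directions. Of 22 tested genes of the cadherin switch and of the epithelial to mesenchymal transition, 8 were higher in early gastruloids and 3 in EpiLCs. The median was 0.08, and 50% were called, against 21.5% of all genes. Cdh1, or E-cadherin, stood at 888 and 945 CPM in EpiLCs and 709 and 739.8 CPM in early gastruloids (-0.34 ± 0.05) and was not called, and Epcam (-0.36 ± 0.05) was not called either. The tight-junction genes Ocln (21.5 and 20.8 against 4.72 and 5.98 CPM, -2.02 ± 0.16) and Cldn7 (83.7 and 81.5 against 30.3 and 32.3 CPM, -1.403 ± 0.08) and the keratin gene Krt18 (80.7 and 87.2 against 29.3 and 27.6 CPM, -1.56 ± 0.08) were higher in EpiLCs. The keratin gene Krt19 was higher in early gastruloids (3.78 and 4.08 against 11.1 and 12.6 CPM, 1.56 ± 0.19). Esrp2, a splicing factor of epithelial cells, was called in the same direction (6.98 and 10.1 against 18.9 and 18.02 CPM, 1.04 ± 0.15), but not without EpiLC replicate 1 (0.87) or with upper quartile scaling (0.99). On the mesenchymal side, Snai1, Cdh2, Zeb2 (0.436 and 0.453 against 2.87 and 2.599 CPM, 2.596 ± 0.42), Zeb1 (2.18 and 3.43 against 9.39 and 12.1 CPM, 1.78 ± 0.19) and Fn1, or fibronectin (493 and 541 against 1243 and 1249 CPM, 1.27 ± 0.05), were higher in early gastruloids. Cdh2, Zeb1 and Fn1 were at or above the early gastruloid level in naïve ESCs, with 15.1 and 13.5 CPM of Cdh2, 34.9 and 30.6 CPM of Zeb1 and 2677 and 2731 CPM of Fn1. Vim (1.04 ± 0.06) lost its call without EpiLC replicate 2 (0.94) or early gastruloid replicate 2 (0.997), or with upper quartile scaling (0.99). Of 14 basement membrane genes, the nidogen genes Nid1 (12.5 and 13.3 against 48.05 and 50.9 CPM, 1.92 ± 0.09) and Nid2 (311 and 298 against 737 and 754 CPM, 1.29 ± 0.05) were higher in early gastruloids, none was higher in EpiLCs by edgeR or DESeq2, and the median was -0.14. The called share was 14.3%, against 21.5% of all genes. At an unadjusted p under 0.05 and any fold change, 6 basement membrane genes were higher in EpiLCs.

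Genes of sterol synthesis and uptake were lower in early gastruloids as a group. Of 25 tested, 11 were higher in EpiLCs, 1 was higher in early gastruloids and 13 were not called. The median was -0.89, and 48% were called, against 21.5% of all genes. The 13 uncalled genes had negative fold changes. Fdps, which makes farnesyl diphosphate, stood at 419 and 381 CPM in EpiLCs and 117 and 114 CPM in early gastruloids (-1.79 ± 0.06, adjusted p = 1.94e-28), with 126 and 139 CPM in naïve ESCs. The lanosterol synthase gene Lss (407 and 393 against 135 and 139 CPM, -1.54 ± 0.06) was likewise higher in EpiLCs. Srebf2, the transcription factor of the pathway (644 and 693 against 412 and 411 CPM, -0.700 ± 0.05), was below the fold threshold. The exception was Ebp, the sterol isomerase (36.7 and 35.5 against 109.7 and 112 CPM, 1.62 ± 0.07). The call of Hsd17b7 (-1.14 ± 0.11) was lost without early gastruloid replicate 1 (-0.92). Serum replacement was present only in the EpiLC medium, and its part in these levels was not tested.

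**Figure D3:**
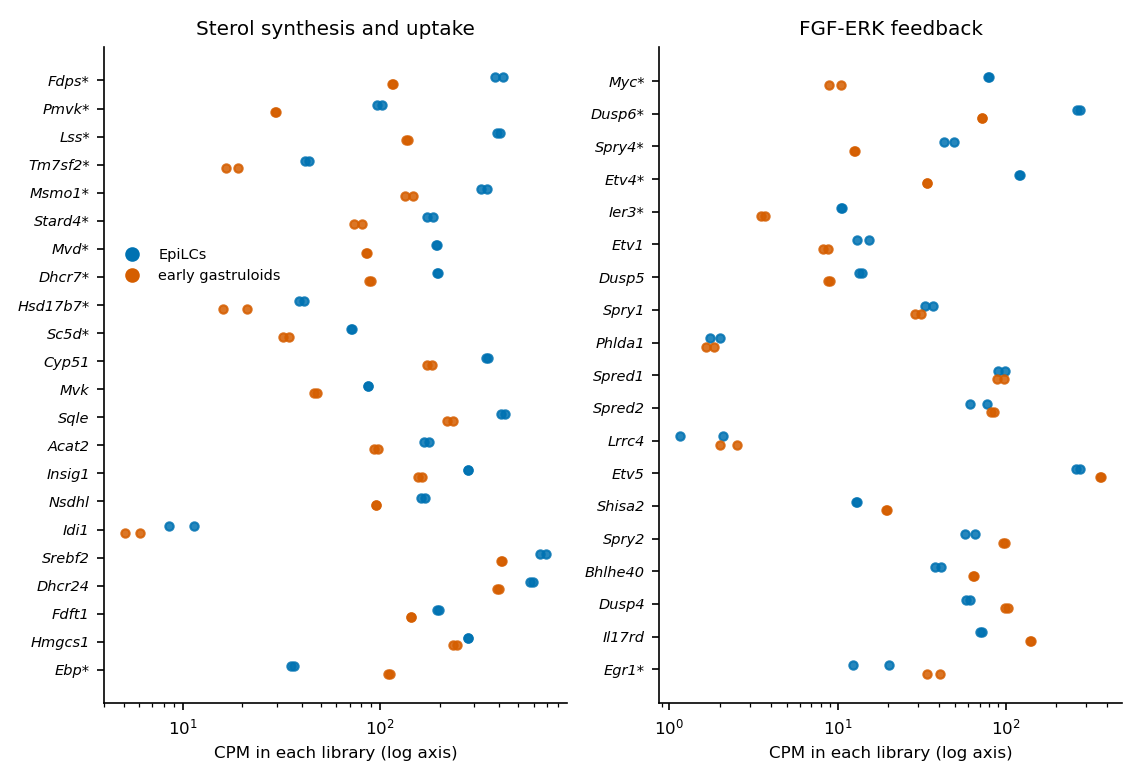
CPM in each library (log axes) of 22 of the 25 tested genes of sterol synthesis and uptake (left) and of the 19 tested FGF-ERK feedback regulators and targets (right), with 2 EpiLC libraries in blue and 2 early gastruloid libraries in orange for each gene and an asterisk for DETs. In the left panel the early gastruloid libraries lie at lower CPM for each gene but Ebp, and in the right panel the genes lie on both sides.

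Glycolytic genes differed in single members. Of 20 tested, 3 were higher in early gastruloids and 1 was higher in EpiLCs, with a median of 0.16, and this share was near that of all genes. The glucose transporter gene Slc2a3 (191 and 185 against 841 and 879.7 CPM, 2.195 ± 0.05), Ldhb (111 and 97.9 against 452 and 455 CPM, 2.13 ± 0.06) and Pfkp (67.8 and 63.5 against 225 and 219 CPM, 1.77 ± 0.06) were higher in early gastruloids, and the lactate exporter gene Slc16a3 was higher in EpiLCs (577 and 565 against 169 and 176 CPM, -1.73 ± 0.06). Pkm, Aldoa and Slc2a1 were within 0.07 log2 units of 0. Among 19 hypoxia response genes tested, Ndrg1 (2.34 ± 0.14) and Kdm3a (1.53 ± 0.06) were higher in early gastruloids and Vegfa (-1.25 ± 0.08) was higher in EpiLCs, with a median of -0.26 and a called share of 21.1%, near that of all genes. Adm was the other call toward EpiLCs (-1.15 ± 0.35) and was called neither by DESeq2 nor without early gastruloid replicate 1 (-1.02). Of 25 cell-cycle genes, Cdkn1c (41.03 and 39.5 against 10.7 and 11.1 CPM, -1.88 ± 0.10) was higher in EpiLCs and Mki67 was called toward early gastruloids (83.2 and 181 against 339 and 263 CPM, 1.13 ± 0.14), with a median of -0.12. The called share of the cell-cycle list was 8%, against 21.5% of all genes. The EpiLC libraries were uneven in Mki67, which was at 0.74 without EpiLC replicate 1, 1.86 without EpiLC replicate 2 and 0.93 without early gastruloid replicate 1, the first and the last of which were no longer called. Mki67 was also not called with gene length as an offset (0.95, and 0.94 with a replicate block).

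**Figure D4:**
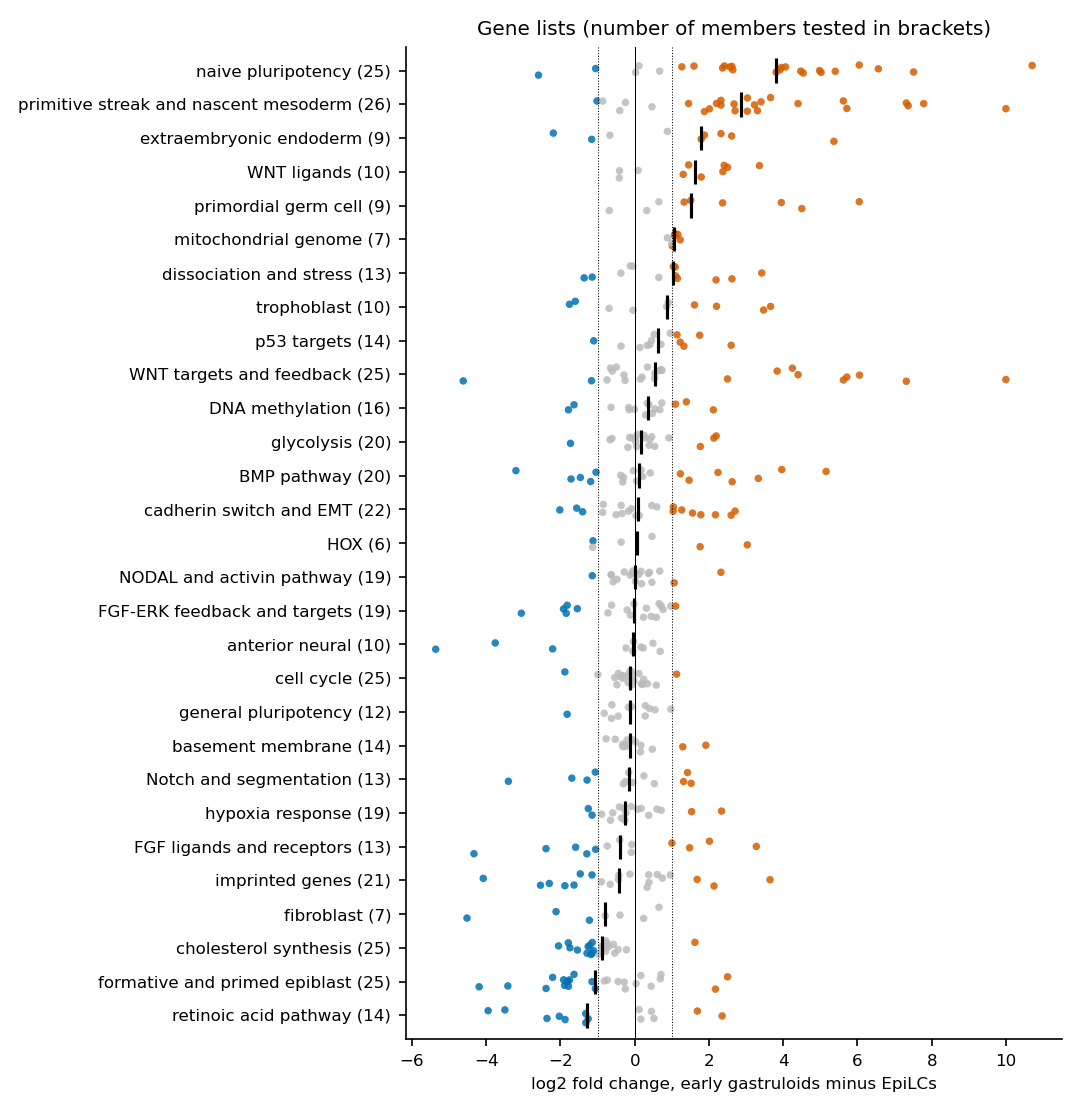
Log2 fold change of early gastruloids minus EpiLCs (horizontal axis) for each tested member of 29 gene lists, with DETs higher in early gastruloids in orange, DETs higher in EpiLCs in blue, other genes in grey and the median of each list as a black bar. Naïve pluripotency (median 3.81) and primitive streak (2.87) lie at the top, and retinoic acid (-1.28), formative and primed epiblast (-1.06) and cholesterol synthesis (-0.89) lie at the bottom.

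Markers of other cell types were also examined. Of 15 extraembryonic endoderm markers, 9 were tested. Of these, 5 were higher in early gastruloids and 2 were higher in EpiLCs (77.8% called, against 21.5% of all genes). Their summed level was 322.4 and 337.9 CPM in EpiLCs and 1976 and 1966 CPM in early gastruloids, most of it Apoe (312 and 325 against 1952 and 1943 CPM, 2.61 ± 0.05), a lipid carrier that naïve ESCs expressed at 1252 and 1311 CPM. The defining genes Gata6 (1 and 4 against 17 and 5 counts) and Sox17 (3 and 8 against 8 and 5 counts) were near 0, Ttr was at 0 in the 4 libraries, and Hnf4a stood at 0 and 0.388 against 11.2 and 11.9 CPM (5.37 ± 0.35). Without EpiLC replicate 2, Hnf4a was at 0 counts in EpiLCs, and its fitted value of 9.89 is no measure of size. Of 12 trophoblast markers, 10 were tested, with 4 higher in early gastruloids (Cdx2, Gata2, Eomes and Plet1) and 2 higher in EpiLCs (Gata3 and Krt7). That is 60% called, against 21.5% of all genes. The sum of the trophoblast markers ran from 28.2 to 29.8 CPM in EpiLCs and from 68.6 to 69.5 CPM in early gastruloids. The call of Gata3 (-1.76) was lost without EpiLC replicate 2 (-0.98) or early gastruloid replicate 1 (-1.11). Gata2 was at 3.47, and at 4.07 without EpiLC replicate 2. Elf5, which defines trophoblast, had 1 and 1 against 0 and 0 counts. Of 7 fibroblast markers tested, none was higher in early gastruloids by edgeR or DESeq2 (1 at an unadjusted p under 0.05). Toward EpiLCs there were 3 calls, Dcn, Col1a1 and Acta2 (42.9% called, against 21.5% of all genes). Col3a1, Postn and Lum had at most 2 counts in any library. The call of Col1a1 (-1.22) was lost without EpiLC replicate 2 (-1.13) or early gastruloid replicate 2 (-0.92), and its value was -1.96 without early gastruloid replicate 1. The 7 markers of 2-cell-like cells in the table summed to at most 0.727 CPM. Of 9 primordial germ cell markers, 6 were higher in early gastruloids (66.7% called, against 21.5% of all genes). Of the 6, Prdm14, Tfap2c and Dppa3 are also naïve pluripotency genes. Prdm1 (25.5 and 20.6 against 54.7 and 58.2 CPM, 1.33 ± 0.09), Kit (10.2 and 8.94 against 26.2 and 27.3 CPM, 1.51 ± 0.11) and Nanos3 (0.291 and 0.129 against 4.43 and 4.16 CPM, 4.500 ± 0.48, and 3.84 without EpiLC replicate 2) were the others. Ddx4 (-0.68 ± 0.10), Dazl (0.65 ± 0.17) and Dnd1 (0.33 ± 0.16) were not called. The germ cell markers summed to 99.7 and 97.9 CPM in EpiLCs and 299.8 and 303.4 CPM in early gastruloids. The sum was higher in naïve ESCs, at 539.9 and 530.2 CPM.

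RNA of the mitochondrial genome and of some immediate early genes also differed between the groups, the latter in both directions. The 9 mitochondrial protein genes in the table summed to 15586 and 16017 CPM in EpiLCs and 30272 and 34248 CPM in early gastruloids. Of the 7 tested, 5 were called higher in early gastruloids, with a median of 1.07 (71.4% called, against 21.5% of all genes). mt-Cytb stood at 2695 and 2856 against 5872 and 6563 CPM (1.16 ± 0.06). The calls of mt-Nd5, mt-Nd6 and mt-Nd2 were lost without early gastruloid replicate 2, with 0.98, 0.95 and 0.92, and that of mt-Nd2 was also lost without EpiLC replicate 1 (0.99), by DESeq2 (0.99), with DESeq2 size factors (0.99) and with upper quartile scaling (0.96). mt-Co1 stood at 6451 and 6516 against 12142 and 13778 CPM, the largest difference in CPM of all tested genes, and was just under the fold threshold at 0.9992. Of 13 genes known to respond to dissociation and stress, 7 were higher in early gastruloids and 2 were higher in EpiLCs. Calls made up 69.2%, against 21.5% of all genes. The 4 not called were Hspa8 (0.65), Ier2 (-0.05), Zfp36 (-0.12) and Dusp1 (-0.37). Fos (1.600 and 1.81 against 17.9 and 20.2 CPM, 3.42 ± 0.18) and Jun (13.1 and 14.6 against 32.2 and 30.1 CPM, 1.15 ± 0.10) were higher in early gastruloids, and Atf3 (29.2 and 28.6 against 12.1 and 9.87 CPM, -1.36 ± 0.12) and Jund (113 and 100.4 against 46.9 and 49.1 CPM, -1.14 ± 0.07) were higher in EpiLCs. The call of Hspa1b (1.09 ± 0.24) was lost without EpiLC replicate 2 (0.94) or early gastruloid replicate 1 (0.92). That of Hspa1a (2.19 ± 0.54) was lost without early gastruloid replicate 1 (1.61), where it missed the adjusted p. That of Junb (1.04 ± 0.14) was lost with upper quartile scaling (0.99) or without early gastruloid replicate 2 (0.97). Egr1 is described with the FGF-ERK genes. The part of cell handling in the other results was not tested. Of 14 p53 target genes, 5 were higher in early gastruloids, among them Cdkn1a, the cell-cycle inhibitor p21 (83.8 and 73.7 against 258 and 266 CPM, 1.75 ± 0.07), and Perp (25.9 and 25.3 against 63.3 and 64.9 CPM, 1.33 ± 0.09), while Pmaip1 was higher in EpiLCs (231 and 235 against 113 and 103 CPM, -1.103 ± 0.06). The called share of the p53 list was 42.9%, against 21.5% of all genes.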

How the data were processed

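Poly(A) RNA libraries were made with the NEBNext UltraII kit and sequenced in paired reads on an Illumina NextSeq instrument. The paper names a longer and a shorter read configuration and does not say which libraries had which. Whether read length differed between the compared groups is therefore not known. The authors trimmed reads with Trimmomatic 0.39, aligned them to GRCm39 with STAR and counted them with featureCounts under default settings, which ignore strand and leave out multi-mapped reads. The deposited values are raw counts per gene. Of the 447 tested genes of the lists and the largest changes, 298 have an annotated gene on the other strand, whose reads cannot be told apart, and near-identical copies (Fth1, Dppa5a, Hspa1a and Hspa1b, Lefty1 and Lefty2, mitochondrial genes) are uncertain.

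Counts were fitted with edgeR 4.0.16 (R 4.3.3; TMM factors, quasi-likelihood test, all 8 mouse libraries in 1 fit so that they share an estimate of the spread), with genes kept by filterByExpr on the 4 compared libraries and Benjamini-Hochberg adjustment over the 14294 tested. The script was tested on simulated data. Members and gene lists were chosen with earlier results of these data known. Named genes were list members, the 10 largest rises and falls among DETs of at least 10 CPM with more than 3 counts in a library of the lower group and no overlap between the groups, and the 5 largest CPM differences in each direction. Intervals of ratios are exact binomial (95%) and cover counting error only. Coordinates, biotypes and windows came from GENCODE M39 (GRCm39). Alternatives were other scalings, DESeq2 1.42.0, other filters, gene length offsets, a replicate block and the omission of each replicate. Some genes of the lists are counted but not reported here by name.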

Additional observations from a re-analysis of the deposited data

How the results depend on the processing

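The number of DETs ran from 2688 (DESeq2) to 3463 (no filter on low counts, 27215 genes) under the other scalings, filters, fits and offsets, with 2 exceptions. Requiring at least 10 counts in each of the 4 libraries left 12254 genes and 1961 DETs, of which 1052 were higher in early gastruloids and 909 in EpiLCs, since genes near 0 in a group were removed. Calling by the adjusted p alone gave 9348, of which 4786 were higher in early gastruloids and 4562 in EpiLCs. Leaving out 1 replicate gave 2859 to 3022 DETs, with 1574 to 1701 higher in early gastruloids and 1212 to 1341 higher in EpiLCs. The lone library left in a group is then assumed to vary like the other groups. Replicate numbers did not pair the libraries (correlation of deviations -0.0542, 2 numbers), and a replicate block gave 3044 DETs. Of 447 named genes tested, 372 had a value under all 14 alternatives other than the adjusted p alone, and 339 of these kept their call or its absence. Of the 75 without a value under a stricter filter or another alternative, 65 kept it wherever a value was given. In all, 32 lost a call, 11 gained one and none reversed. The cause was not tested. Depth limits genes below about 0.437 CPM, the level of 3 counts in the shallowest library.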

Other observations

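The classes below were chosen after their values were seen. Calls were counted by the class of gene in the annotation. Of 637 lncRNA genes tested, 143 were higher in early gastruloids and 100 were higher in EpiLCs (38.1% called), against 1467 and 1256 of 13094 protein-coding genes (20.8%). Among short RNAs, 8 of 14 snoRNA genes tested were higher in early gastruloids and 6 were not called by edgeR's quasi-likelihood test. Their counts were low, with Snord83b at 1 and 16 counts in the EpiLC libraries and 72 and 24 in the early gastruloid libraries, and Snord32a at 5 and 14 against 53 and 18 counts. Of 55 loci of the annotation class TEC, which await experimental support, 24 were higher in early gastruloids and 4 were higher in EpiLCs. The highest of these, Gm49759, stood at 5.24 and 8.16 CPM in EpiLCs and 32.9 and 27.5 CPM in early gastruloids. Some genes of both classes passed the count filter only through the early gastruloid libraries. Examples were the snoRNA Gm23136 (0 and 2 against 19 and 9 counts) and the TEC locus Gm43414 (1 and 1 against 20 and 10 counts). For such genes the direction was fixed by the filter, so that the split of calls in these classes is not a result on its own. Most snoRNAs lie within introns of other genes and lack a poly(A) tail.

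Median log2 fold changes by chromosome ran from -0.044 on chromosome 3 to 0.103 on the X chromosome, over the 20 chromosomes with at least 100 tested genes.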
